A study of Mus musculus with 6 samples.

Results

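Long non-coding RNAs (lncRNAs) that lie on the same strand as a protein-coding gene, inside it or across one of its ends, were described in mouse hearts after ischaemia and reperfusion. A lncRNA was included when its name was a provisional one (Gm and a number, or a clone name ending in Rik) and its span shared at least 1 base with a listed protein-coding transcript on the same strand, with 15 names left out. This gave 1017 of the 9413 lncRNAs in the table, or 10.8%. The hearts came from male mice and were perfused in isolation on a Langendorff apparatus, which feeds the coronary vessels from outside. The 3 Sham hearts kept contracting throughout. The 3 I/R hearts were arrested with cardioplegic solution for 30 min and then reperfused for 1 h. Both groups share the isolation and the perfusion, and the labels give neither strain nor age. The comparison asks how the abundance of these RNAs differed between I/R and Sham.

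A coding gene is transcribed from its start through exons and introns, and the introns are normally removed and degraded. A polyadenylated RNA from within such a gene on the same strand may be an independent transcript with its own start, a product that shares the coding gene's promoter, or a retained piece of the coding gene's unspliced RNA. Genome annotation gives these RNAs provisional names because most have no known function. Reads from a lncRNA and from an unspliced transcript of the coding gene around it look alike where they share a strand and a position, so the 2 sources cannot be told apart in these values.

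Promoter sequences are shown for 3 coding genes, Pik3r1, Medag and Mgll. These genes and a lncRNA lying in or across each were at an unadjusted p under 0.05 in limma, and none passed the adjustment. Sequences are also shown for Ank2, which holds many of these lncRNAs, and for C730034F03Rik, a gene listed both as lncRNA and as coding. Each is 300 bases of RefSeq sequence (GRCm38.p6), 250 before and 50 after the annotated start nearest the gene's 5′ end in the table, written 5′ to 3′. Capitals mark matches on either strand to the TATA box TATAAA, the AP-1 site TGANTCA, the cAMP response element TGACGTCA, the CCAAT box CCAAT or the GC box GGGCGG.
Pik3r1, chr13:101768168-101768467, minus strand: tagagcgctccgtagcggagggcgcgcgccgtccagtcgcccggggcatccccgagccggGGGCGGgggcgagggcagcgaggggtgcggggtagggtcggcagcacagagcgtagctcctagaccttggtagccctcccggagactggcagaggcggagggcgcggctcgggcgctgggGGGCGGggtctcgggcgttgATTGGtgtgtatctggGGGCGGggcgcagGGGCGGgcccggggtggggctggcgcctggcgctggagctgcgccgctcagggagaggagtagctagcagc
Medag, chr5:149411499-149411798, plus strand: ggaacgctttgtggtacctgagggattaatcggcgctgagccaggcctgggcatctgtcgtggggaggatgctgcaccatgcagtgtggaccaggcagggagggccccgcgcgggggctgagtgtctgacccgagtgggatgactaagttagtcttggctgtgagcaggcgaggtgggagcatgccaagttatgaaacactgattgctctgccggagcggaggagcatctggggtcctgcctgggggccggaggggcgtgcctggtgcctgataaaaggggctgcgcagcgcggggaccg
Mgll, chr6:88724162-88724461, plus strand: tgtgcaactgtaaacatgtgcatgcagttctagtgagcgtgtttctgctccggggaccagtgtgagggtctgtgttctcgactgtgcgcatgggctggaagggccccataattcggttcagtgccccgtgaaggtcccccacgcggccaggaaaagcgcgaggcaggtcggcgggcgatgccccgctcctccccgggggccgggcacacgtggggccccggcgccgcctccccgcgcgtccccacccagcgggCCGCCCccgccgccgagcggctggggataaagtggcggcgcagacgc
Ank2, chr3:127499066-127499365, minus strand: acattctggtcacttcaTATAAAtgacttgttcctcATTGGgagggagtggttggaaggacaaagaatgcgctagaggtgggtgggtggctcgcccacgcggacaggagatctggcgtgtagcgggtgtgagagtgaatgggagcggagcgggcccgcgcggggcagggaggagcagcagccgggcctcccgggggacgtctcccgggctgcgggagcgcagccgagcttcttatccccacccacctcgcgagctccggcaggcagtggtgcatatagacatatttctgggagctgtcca
C730034F03Rik, chr15:89429273-89429572, plus strand: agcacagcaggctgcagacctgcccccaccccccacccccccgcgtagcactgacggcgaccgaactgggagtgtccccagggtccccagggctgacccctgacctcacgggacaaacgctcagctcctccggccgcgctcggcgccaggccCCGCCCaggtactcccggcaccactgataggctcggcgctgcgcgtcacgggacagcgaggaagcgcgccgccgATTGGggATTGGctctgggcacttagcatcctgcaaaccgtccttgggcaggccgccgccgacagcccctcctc
The Pik3r1 window held 4 matches to the GC box and 1 to the CCAAT box, and the Mgll window 1 to the GC box. In the Medag window none of the 5 motifs was found. The Ank2 window held 1 match each to the TATA box and the CCAAT box, and the C730034F03Rik window 2 to the CCAAT box and 1 to the GC box. Among all 32851 promoter windows of the same length, 13.6% held the TATA box, 7.81% the AP-1 site, 1.79% the cAMP response element, 37.4% the CCAAT box and 35.7% the GC box. The matches are letters in these windows and no measure of binding.

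Of the 1017 lncRNAs, 955 lay wholly inside the coding gene, 33 extended past its 5′ side, 16 past its 3′ side, and 13 enclosed it. In 801 (78.8%) the transcript length recovered from the values equalled the span on the chromosome, as in a transcript of 1 exon. Where several lengths gave whole reads, the span was taken if it was among them and was at most 6000 bases. The count was 803 with no such limit and 774 with the smallest length alone. Among lncRNAs of the same name pattern that overlapped a coding gene on the opposite strand only, this held for 317 of 1649 (19.2%), and among those with no listed coding gene for 1769 of 5452 (32.4%). Nearly all of the 1-exon transcripts, 800, lay inside the coding gene, and 1 of the 62 at other positions had a single exon. The median length was 1929 bases, from 59 (Gm37235, in the potassium channel gene Kcnq1) to 25241 (Gm45159). The sources used here do not place them in introns, exons or UTRs of the coding gene.

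For 55 of the 1017, the overlapping coding entry was the same gene under the same Ensembl identifier, listed once as lncRNA and once as protein-coding. The other 962 overlapped 602 distinct coding genes. Of these genes 444 held 1 lncRNA, 158 held at least 2, and 40 held at least 4, together 248 lncRNAs. Auts2, a nuclear protein gene known from brain development, held 22, the synaptic scaffold gene Dlg2 held 21, Ank2 held 12, and the Notch co-activator gene Maml3 held 11. LncRNAs inside 1 gene share a locus and are not independent of each other.

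The totals behind the deposited FPKM were 2025331 to 2792592 reads for lncRNAs and 7233171 to 9902397 for protein-coding transcripts, and listed coding transcripts held 36.8% to 39.9% of the latter. The described lncRNAs took 5.67% to 6.25% of the lncRNA reads of each heart. The summed FPKM of cardiomyocyte markers (10 of 12 listed) was 613 to 692 in Sham and 489 to 549 in I/R hearts. For fibroblast markers (7 of 7 listed) it was 212 to 289 and 298 to 337, and for macrophage markers (4 of 7 listed) 885 to 1064 and 1096 to 1191. The groups did not overlap in any of these sums. They overlapped for endothelial markers (101 to 125 in Sham and 118 to 150 in I/R hearts). So they did for smooth muscle and pericyte markers (810 to 1062 and 794 to 1131). The low blood and lung sums did not separate the groups either. Each sum holds only the listed transcripts of its markers, so sums are not compared between cell types. At an unadjusted p under 0.05 in limma, 2 of 9 tested cardiomyocyte markers were lower. Of the tested fibroblast markers 2 of 6 were higher, and of the macrophage markers 1 of 4. The part of these shifts in the results below was not tested. Fewer cells of a type and less RNA per cell cannot be told apart in whole hearts. Labels do not say whether each library is 1 animal, so p-values measure the spread between these samples.

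Levels covered a wide range, with a median of 14.9 FPKM (fragments scaled by transcript length and by the class total) among the 917 that reached a mean of 0.5 FPKM and were tested. Of these, 63 had at least 100 FPKM, 484 had 10 to 100 and 370 had 0.5 to 10. The other 100 fell below the filter. The most abundant was Gm28967, a 281-base transcript inside Ncapd2, a condensin subunit gene, at 3952, 3863 and 3036 FPKM in Sham and 3830, 3327 and 3306 FPKM in I/R hearts. The groups overlapped. The coding gene itself was listed at 0.728 ± 0.978 FPKM in Sham (SD, n = 3), which is scaled to the total of its own class, so these heights are not compared. Gm20412 in Rprd1b had 2080, 2398 and 3183 FPKM in Sham and 2855, 2195 and 2375 in I/R hearts, again overlapping.

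Gm43809, which crosses the 5′ side of the DNA repair gene Babam2, was at 2118 to 2194 FPKM in Sham and 2072 to 2208 in I/R hearts. Gm15344 in Hsp90b1, the gene of an endoplasmic reticulum chaperone, was at 647 to 884 FPKM in Sham and 640 to 818 in I/R hearts. Gm43079 in Acad9, whose product helps assemble respiratory complex I, had 562 to 626 FPKM in Sham and 620 to 673 in I/R hearts. Gm42936 at D5Ertd579e (log2 difference −0.10), Gm43695 in Pisd (0.03), Gm17021 at Fyco1 (−0.14), Gm17134 in Plppr3 (0.09), Gm28052 at Tbc1d22b (0.06), Gm45883 at Mmd (0.17), Gm29103 around Slc45a3 (−0.03) and Gm17106 around Iqcg (−0.12) were also among the highest of their position class, and their groups overlapped.

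No lncRNA of the 917 tested passed an adjusted p under 0.05 in limma, and neither did any of the 12114 genes and lncRNAs of the table (0%). The smallest adjusted p among the described lncRNAs was 0.385. At an unadjusted p under 0.05, 41 (4.47%) were higher and 56 (6.11%) lower in I/R, against 4.23% and 4.21% (8.44% in both directions) of all 12114 and 4.81% and 6.02% of the 7073 lncRNAs tested. The counts lie close to those of lncRNAs as a whole. Hearts of the groups did not overlap for 131, of which 56 were above and 75 below in I/R, which is 14.3% against 13.7% of all tested (7.1% above and 6.57% below). Of the 917, 530 (57.8%) were below 0, against 50.3% of all tested and 54.1% of the lncRNAs tested. The median log2 difference was −0.05, beside −0.002 for all tested and −0.03 for lncRNAs.

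The excess of lower values depended on the scaling. With each class centred on its median, 61 were higher and 40 lower and the median was 0.01, and with quantile normalization 50 were higher and 52 lower. Of the 97 lncRNAs at an unadjusted p under 0.05, 42 stayed under it whichever of the 6 hearts was left out, 20 of the 41 higher and 22 of the 56 lower. Those of 1 exon counted 29 higher (4.02%) and 50 lower (6.93%) of 721 tested. The others counted 12 higher (6.12%) and 6 lower (3.06%) of 196, beside 4.81% and 6.02% of all lncRNAs tested. Genes listed both as lncRNA and as coding, described below, made up 10 of the 41 higher, and 5 of these 10 were of 1 exon. With each class centred on its median the 1-exon lncRNAs counted 42 higher and 37 lower, and without I/R replicate 1 the others counted 14 higher and 13 lower. This difference was not tested.

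The lncRNAs higher in I/R with the smallest p came from varied loci, and each is given here as a difference that did not pass the adjustment. Gm11110, listed both as lncRNA and as coding, had 11.2, 10.9 and 7.91 FPKM in Sham and 20.3, 32.1 and 24.3 in I/R hearts, a log2 difference of 1.26 ± 0.22 (SE; limma, adjusted p = 0.385). Gm10382, of the same kind and far more abundant, had 462, 471 and 563 FPKM in Sham and 881, 743 and 681 in I/R hearts (0.62 ± 0.13). Every I/R heart was above every Sham heart in both.

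Gm37745 in Ptpn4, a tyrosine phosphatase gene, had 8.69, 8.77 and 10.6 FPKM in Sham and 14.9, 23.6 and 16.2 in I/R hearts (0.87 ± 0.21), while Ptpn4 differed by −0.05. Gm45153 in Xylt1, which starts the sugar chains of proteoglycans, had 8.85, 7.38 and 8.83 FPKM in Sham and 12.4, 18.4 and 15.4 in I/R hearts (0.80 ± 0.19). Gm40578, which encloses Gm266, had 214, 211 and 167 FPKM in Sham and 268, 410 and 295 in I/R hearts (0.70 ± 0.18). In all 3 the I/R hearts lay above the Sham hearts. So they did for Gm16132 in the Fanconi anaemia gene Fancc (0.84 ± 0.21), Gm10645 (0.85 ± 0.19) and B430218F22Rik (0.42 ± 0.11), the last 2 listed under 1 symbol as lncRNA and as coding. Gm45073 in Efnb2, the ephrin-B2 ligand of vessels, had 26.6 to 33.6 FPKM in Sham and 36.6 to 62.1 in I/R hearts (0.69 ± 0.21), and its unadjusted p was above 0.05 without Sham replicate 3.

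**Figure D1:**
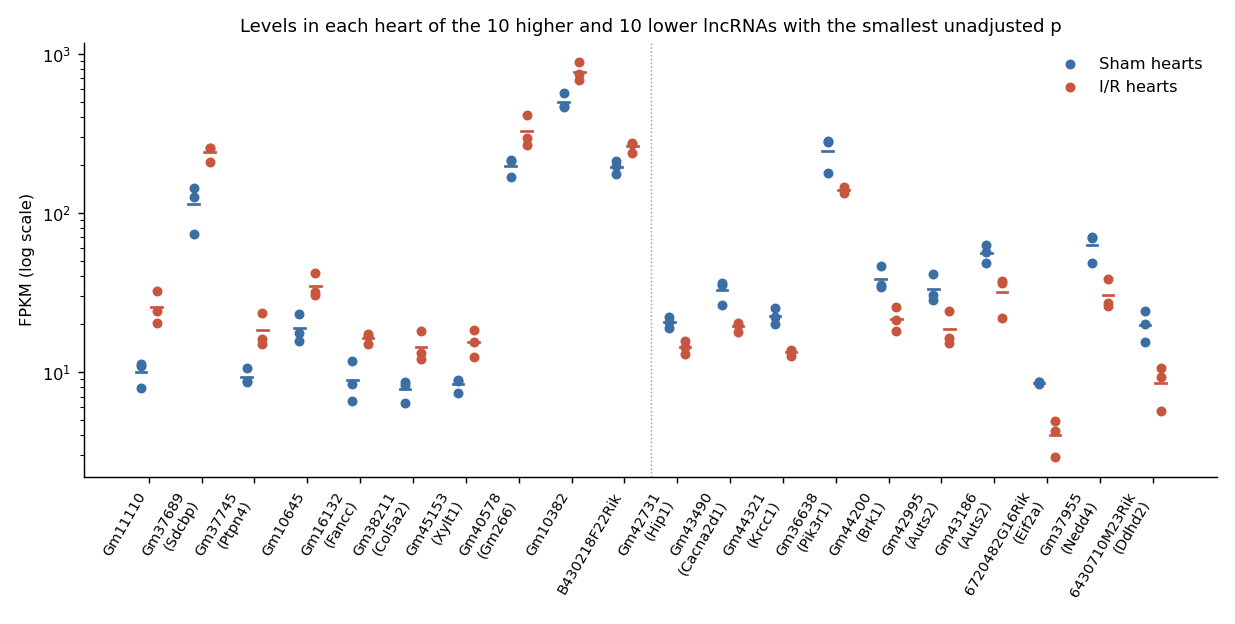
FPKM (log axis) in each of the 3 Sham (blue) and 3 I/R (red) hearts for the 10 higher (left of the dotted line) and 10 lower lncRNAs with the smallest unadjusted p among those with at least 60 reads, with the coding gene in brackets and short lines at the group means. The groups do not overlap for any of the 20, from Gm10382 at 462 to 881 FPKM to 6720482G16Rik at 2.91 to 8.71 FPKM. The 20 were picked by p in these same hearts, and the groups did not overlap for 13.7% of all tested.

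Among those lower in I/R, Gm44321 in Krcc1 had 25.3, 22.2 and 20.1 FPKM in Sham and 12.7, 13.6 and 13.7 in I/R hearts, a log2 difference of −0.71 ± 0.14 (limma, adjusted p = 0.386). Gm37955 in the ubiquitin ligase gene Nedd4 had 70.9, 48.7 and 69.9 FPKM in Sham and 38.4, 27.2 and 26.1 in I/R hearts (−1.02 ± 0.21). 6720482G16Rik in Eif2a, a translation initiation factor gene, had 8.71, 8.36 and 8.70 FPKM in Sham and 4.93, 2.91 and 4.28 in I/R hearts (−0.95 ± 0.21). The I/R hearts lay below the Sham hearts in each. The same held for Gm44200 in Brk1, a subunit gene of the actin-regulating WAVE complex (−0.81 ± 0.18), 6430710M23Rik in the phospholipase gene Ddhd2 (−1.14 ± 0.26) and Gm42731 in the clathrin adaptor gene Hip1 (−0.49 ± 0.14).

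Gm45909 in the carboxylesterase gene Ces1d had the widest difference among those with at least 60 reads, and it was uneven between hearts. It had 59.0, 53.0 and 241 FPKM in Sham and 7.89, 7.09 and 45.8 in I/R hearts (−2.62 ± 0.83), and replicate 3 was the highest of its group in both. Its unadjusted p was above 0.05 when Sham replicate 3, I/R replicate 1 or I/R replicate 2 was left out. Ces1d differed by −0.30.

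For 5 of 62 lncRNAs at an unadjusted p under 0.05 with a tested coding gene of another name, that gene was also under it. Among all coding genes tested, 3.43% were higher and 1.67% lower at that p. In all 5 the lncRNA and the coding gene differed in the same direction. Gm37689, a 275-base transcript at chr4:6378018-6378292 (GRCm38) inside Sdcbp, had 125, 144 and 73.6 FPKM in Sham and 255, 256 and 209 in I/R hearts. Sdcbp, which encodes the membrane trafficking scaffold syntenin-1, had 20.01, 31.1 and 18.3 FPKM in Sham and 50.5, 50.7 and 42.9 in I/R hearts. Both were higher in every I/R heart than in any Sham heart, with log2 differences of 1.11 ± 0.25 and 1.06 ± 0.21. FPKM of lncRNAs and of coding genes are scaled to different totals, so their heights are not compared here.

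Gm36638, at chr13:101749720-101751888 inside Pik3r1, had 281, 177 and 277 FPKM in Sham and 132, 139 and 146 in I/R hearts. Pik3r1, the regulatory p85 subunit gene of PI 3-kinase whose promoter is shown above, had 114, 126 and 157 FPKM in Sham and 86.9, 96.1 and 107 in I/R hearts. The I/R hearts lay below the Sham hearts in both, by −0.78 ± 0.18 and −0.44 ± 0.15 on the log2 scale. The difference between the pair was −0.34 ± 0.26 (limma, unadjusted p = 0.225).

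Gm44001, at chr6:88802243-88806015 inside Mgll, had 49.7, 49.0 and 48.9 FPKM in Sham and 44.9, 26.7 and 29.3 in I/R hearts. Mgll, the monoacylglycerol lipase gene, had 25.4, 25.3 and 28.4 FPKM in Sham and 21.4, 18.3 and 16.4 in I/R hearts. The groups did not overlap in either, and I/R replicate 1 was nearest the Sham hearts. The unadjusted p of Gm44001 stayed under 0.05 only when I/R replicate 1 was left out, among the 6 fits with 1 heart left out.

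Gm20488, which reaches into Medag from its 5′ side (chr5:149368476-149430682), had 77.9, 79.1 and 77.1 FPKM in Sham and 131, 91.4 and 111 in I/R hearts. Medag, an adipogenesis gene, had 0.908, 1.24 and 1.09 FPKM in Sham and 1.80, 1.81 and 1.87 in I/R hearts. Gm38211, at chr1:45485836-45493052 inside the collagen gene Col5a2, had 8.24, 8.64 and 6.43 FPKM in Sham and 18.1, 13.2 and 12.02 in I/R hearts. Both lncRNAs and both coding genes were higher in each I/R heart than in any Sham heart. The fibroblast marker sum given above was also higher in the I/R hearts, and its part in the Col5a2 pair was not tested.

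**Figure D2:**
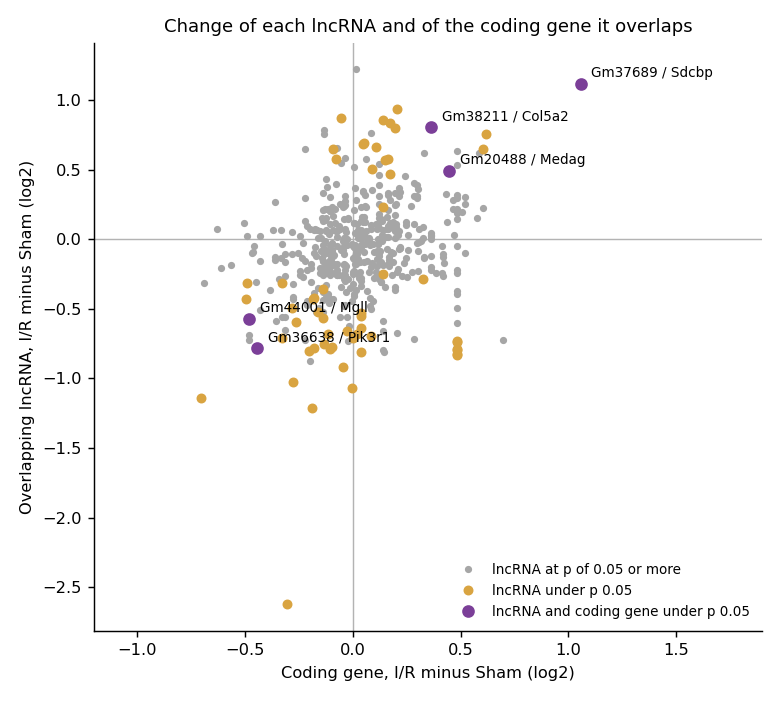
Log2 difference (I/R minus Sham) of each lncRNA with at least 60 reads (vertical) against that of the other coding gene it overlaps (horizontal), for 503 pairs with both tested. Pairs with both under an unadjusted p of 0.05 are named, and all 5 lie in the quadrants where both signs are the same.

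Over the 503 pairs of a different coding gene in which the lncRNA had at least 60 reads, 293 (58.3%) had the same sign, and Pearson's r across pairs was 0.27 (Spearman 0.28). Over 176 pairs with at least 300 reads in both it was 0.44 (Spearman 0.39). For lncRNAs on the opposite strand of a coding gene, r was 0.42 over 775 pairs and 0.52 over 292 pairs at the same minimums. These are descriptions across pairs measured in the same 6 hearts, and pairs sharing a coding gene are not independent. Of 62 lncRNAs at an unadjusted p under 0.05 with a tested coding gene of another name, 44 had that gene's sign.

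The difference of lncRNA minus coding gene was fitted for 590 pairs. None passed an adjusted p under 0.05 in limma (smallest adjusted p = 0.578), and 32 (5.42%) were at an unadjusted p under 0.05, with 11 higher (1.86%) and 21 lower (3.56%). Gm11110 against its own coding entry led with 1.65 ± 0.31 (SE). Cacna2d1, an auxiliary calcium channel subunit gene, did not differ in mean (0.00), while Gm43490 inside it had 36.1, 35.1 and 26.4 FPKM in Sham and 20.4, 19.7 and 17.8 in I/R hearts, all below the Sham hearts. The pair difference was −0.71 ± 0.20.

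Gm44200 against Brk1 gave −0.85 ± 0.27, and Gm44716 against the basement membrane collagen gene Col4a1 gave 0.73 ± 0.24. Gm45073 against Efnb2 gave 0.64 ± 0.22, Gm44663 against the kinase gene Prkcb 0.74 ± 0.27 and Gm37678 against Qrich1 0.51 ± 0.17. For Gm37678 the larger part of the pair difference was the coding gene, at −0.49, with the lncRNA at 0.02. Inside Fhit, Gm48437 and Gm48430 rested on 33 and 19 reads, and their pair differences were −1.60 ± 0.42 and −1.06 ± 0.33.

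Per kilobase and in reads, 546 of 736 lncRNAs with at least 60 reads (74.2%) exceeded the listed transcripts of the coding gene, with a median ratio of 3.15. In 216 the ratio was over 10. Listed coding transcripts hold only part of the reads of their class, so this is a comparison with the listed transcripts.

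The lncRNAs inside Auts2 are given by their place along the gene. Auts2 and Ank2 were picked from the 40 genes with at least 4 lncRNAs after the values were seen. LncRNAs inside the same gene are not independent of each other. Auts2 spans chr5:131437333-132543344 on the minus strand, and all 22 lncRNAs inside it have a length equal to their span. The gene was divided into 3 equal parts, with bounds at 33.3% and 66.7% of its length from the 5′ end. In the 5′ part all 8 were lower in I/R, by −0.49 to −0.83 on the log2 scale. Of these, 6 were at an unadjusted p under 0.05 (6.02% lower among all lncRNAs tested). In the middle part, 7 of 8 were above 0, from −0.05 to 0.32 in all, and none was at that p. In the 3′ part, 4 of 6 were below 0 and 2 above, also with none at that p.

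Gm43186, which begins 0.732% into the gene, had 48.7, 56.9 and 62.9 FPKM in Sham and 21.9, 37.4 and 36.1 in I/R hearts (−0.83 ± 0.22; limma, adjusted p = 0.427). Gm43187, at 4.58% of the gene, had 68.1, 69.3 and 79.9 FPKM in Sham and 29.4, 43.4 and 55.5 in I/R hearts (−0.79 ± 0.23). Gm42995, at 30.8%, had 28.5, 30.5 and 41.2 FPKM in Sham and 15.3, 24.0 and 16.3 in I/R hearts (−0.83 ± 0.22). The groups did not overlap in these 3, nor in Gm43188, Gm43019 and Gm42989 between them, while they did in Gm43018 and Gm42996. Further along, 2610011E03Rik, at 49.3%, had 27.7, 28.7 and 26.3 FPKM in Sham and 22.2, 37.7 and 47.2 in I/R hearts (0.30 ± 0.26), with I/R replicate 1 lowest and the other I/R hearts highest.

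Summed over the 8 lncRNAs of the 5′ part, the Sham hearts had 657, 716 and 875 CPM (reads scaled to 1000000 lncRNA reads) and the I/R hearts 319, 493 and 562 CPM, with no overlap. Over the 8 of the middle part the Sham hearts had 617, 709 and 649 CPM and the I/R hearts 561, 783 and 983 CPM, overlapping. I/R replicate 1 was the lowest heart in both sums. All 8 of the 5′ part stayed below 0 under every alternative and with any heart left out. The count at an unadjusted p under 0.05 was 3 without Sham replicate 3, and in the middle part 4 were higher at that p without I/R replicate 1. The median of the middle part was 0.20, and it was 0.42 without I/R replicate 1 and 0.02, with 5 above 0 and 3 below, without I/R replicate 3. The parts were drawn after the values were seen, so no test is given. Auts2 itself rested on 12 reads in Sham and 14 in I/R and differed by 0.48 ± 0.60.

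**Figure D3:**
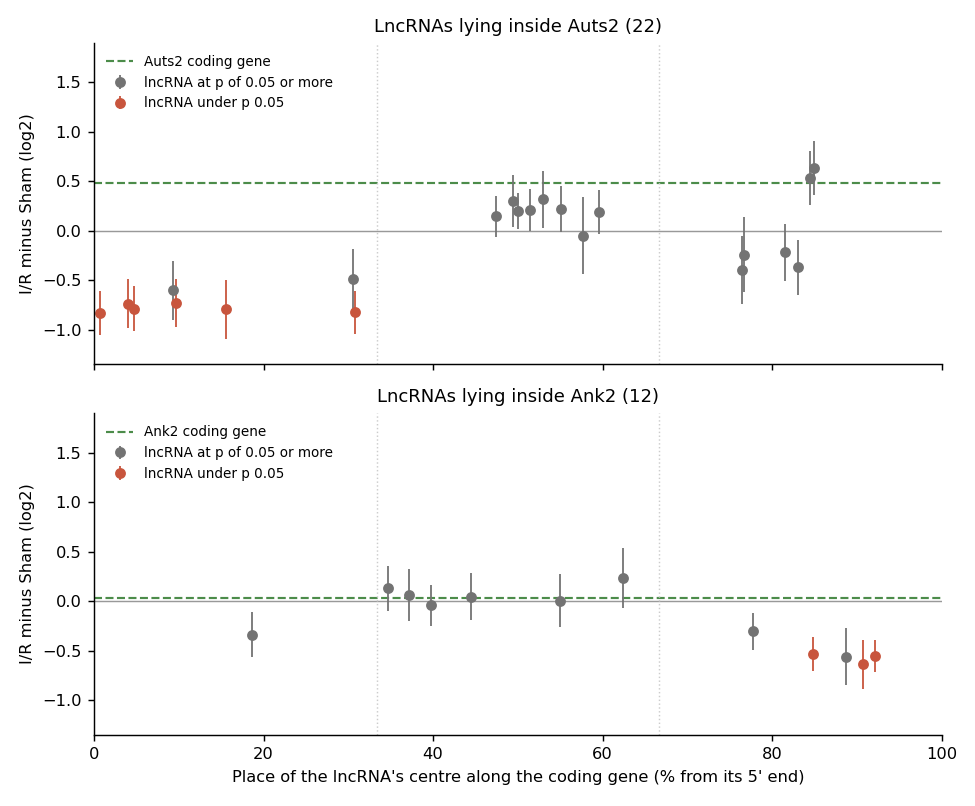
Log2 difference (I/R minus Sham, points, with SE bars) of the 22 lncRNAs inside Auts2 (top) and the 12 inside Ank2 (bottom) by the place of their centre along the gene, in percent from its 5′ end. Red points are at an unadjusted p under 0.05, dotted lines divide the gene in 3 equal parts and the dashed line is the coding gene. All 8 points in the 5′ part of Auts2 and all 5 in the 3′ part of Ank2 lie below 0.

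Ank2 encodes ankyrin-B, which anchors ion transporters in the cardiomyocyte membrane. It spans chr3:126921612-127499350 on the minus strand and holds 12 of the lncRNAs, all of a length equal to their span. In the 3′ part all 5 were below 0, from −0.30 to −0.64, and 3 were at an unadjusted p under 0.05 (6.02% lower among all lncRNAs tested). In the middle part 5 of 6 were above 0, from −0.04 to 0.23 in all. The only one in the 5′ part, Gm42969, was at −0.34 ± 0.23, and its groups overlapped. The signs in the middle part changed when 1 heart was left out: 1 of the 6 was above 0 without Sham replicate 3, 1 without I/R replicate 2 and 3 without I/R replicate 3, while all 6 were above 0 without Sham replicate 1 or without I/R replicate 1.

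A930036I15Rik, at 92.1% of the gene, had 43.9, 47.0 and 38.7 FPKM in Sham and 32.4, 32.0 and 23.6 in I/R hearts (−0.55 ± 0.16; limma, adjusted p = 0.463). Gm43750, at 84.6%, had 21.5, 26.5 and 23.4 FPKM in Sham and 19.4, 15.9 and 13.5 in I/R hearts (−0.53 ± 0.17), and Gm43322, at 90.6%, differed by −0.64 ± 0.25. The groups did not overlap in these 3. Gm42973, at 44.2%, had 55.3, 57.6 and 42.4 FPKM in Sham and 36.9, 62.8 and 64.1 in I/R hearts (0.05 ± 0.24), which overlapped.

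The 5 lncRNAs of the 3′ part of Ank2 summed to 233, 207 and 218 CPM in the Sham hearts and 187, 154 and 124 CPM in the I/R hearts, without overlap. The parts of Ank2 were also drawn after the values were seen, so this sum is no separate result and no test is given. The 6 of the middle part summed to 801, 726 and 553 CPM in the Sham hearts and 514, 856 and 775 CPM in the I/R hearts, overlapping. The count at that p in the 3′ part was 1 without I/R replicate 3, 2 without any 1 of the Sham hearts and 4 without I/R replicate 1. Ank2 differed by 0.04 ± 0.25 on 43 reads in Sham and 36 in I/R.

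**Figure D4:**
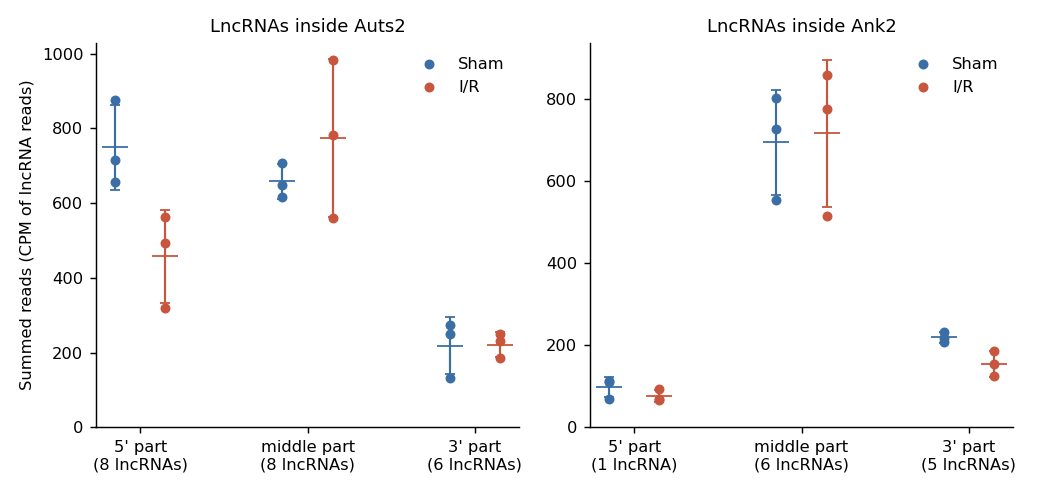
Summed reads (CPM of lncRNA reads) of the lncRNAs in each of 3 equal parts of Auts2 (left) and Ank2 (right), with 1 point per heart, lines at the group means and bars of 1 SD (n = 3). Sham and I/R hearts do not overlap in the 5′ part of Auts2 (657 to 875 against 319 to 562) and the 3′ part of Ank2 (207 to 233 against 124 to 187). The genes and parts were chosen after the values were seen.

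In 5 equal steps from the 5′ to the 3′ end by the place of their centre, lncRNAs inside a coding gene had median log2 differences of −0.07, −0.09, −0.01, −0.06 and −0.09 over all hosts. No test of these steps is given.

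Among the 40 genes that held at least 4 lncRNAs, several others had all their tested lncRNAs on 1 side of 0. Of all 917 tested, 57.8% were below 0, and no test of these genes is given. The side of values near 0 depends on the scaling, since centring each class moved the median of the 917 from −0.05 to 0.01. All 4 inside Nedd4 were below 0, from −0.32 to −1.02, as were all 5 inside the transcription factor gene Mecom, from −0.18 to −0.47. So were all 9 inside Rabgap1l, from −0.01 to −0.74, all 4 inside Fto, from −0.01 to −0.26, and the 3 tested in each of Fhit and Chrm3. All 6 inside Dip2c were above 0, from 0.02 to 0.23, and all 4 inside Enah, an actin regulator gene, from 0.21 to 0.57. All 4 inside Kcnq1 were above 0 as well, from 0.01 to 2.12. Only 1 each in Nedd4, Rabgap1l and Enah was at an unadjusted p under 0.05, and none in Mecom, Dip2c, Fto, Fhit, Chrm3 or Kcnq1. The 7 inside Tcf12, a helix-loop-helix factor gene, ranged from −0.09 to 0.12. Dlg2 held 21, but 7 of them were below the filter and all 21 together had 1272 reads.

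Coding genes of ion channels, calcium handling and receptors, a list of 38, contained 38 of the lncRNAs in 10 genes. Of these, 0 were higher and 6 lower at an unadjusted p under 0.05, and the median was −0.02, beside 4.81% higher and 6.02% lower among all lncRNAs tested. Leaving out 1 heart at a time gave 0 to 2 higher and 4 to 8 lower, and the median moved between −0.15 (without I/R replicate 2) and 0.04 (without Sham replicate 1). Among the list's own 26 coding genes tested, 1 was higher and 2 were lower (3.43% and 1.67% among all coding genes tested). The 6 include the 3 in Ank2, Gm43490 in Cacna2d1 and 4632404M16Rik in Casq2. The lower cardiomyocyte marker sum stands beside this count, and its part was not tested.

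4632404M16Rik, inside the gene of calsequestrin, the calcium-binding protein of the sarcoplasmic reticulum, had 104, 91.1 and 75.6 FPKM in Sham and 70.4, 55.7 and 42.1 in I/R hearts (−0.70 ± 0.21). The I/R hearts were all below the Sham hearts.

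The 7 lncRNAs inside Camk2d, the main calmodulin-dependent kinase gene of the heart, had log2 differences from −0.22 to 0.05, none at that p. Gm43011, the most abundant of them, had 74.96, 70.9 and 67.4 FPKM in Sham and 66.7, 83.9 and 67.6 in I/R hearts. Camk2d differed by 0.37 ± 0.19. Gm37891 in the calcium channel subunit gene Cacnb2 had 31.1 to 59.6 FPKM in Sham and 40.9 to 88.2 in I/R hearts, and Gm37235 in Kcnq1 rested on 55 reads, with 0 in Sham replicate 3.

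Of the sarcomere and Z-disc list, Synpo2, which encodes the Z-disc protein myopodin, contained 3 lncRNAs. Gm43283 had 127, 92.1 and 124 FPKM in Sham and 65.8, 84.1 and 79.3 in I/R hearts (−0.57 ± 0.16). Gm43287 differed by −0.44 ± 0.24 and Gm43288 by −0.38 ± 0.18. The groups did not overlap in Gm43283 and Gm43288, and 1 of the 3 was at an unadjusted p under 0.05. Synpo2 differed by −0.14. Among the 22 coding genes of the list that were tested 1 was higher and 1 lower (3.43% and 1.67% among all coding genes tested).

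The matrix and vessel list contributed 4 lncRNAs, of which 2 were higher and 1 lower at that p (4.81% and 6.02% among all lncRNAs tested). Besides Gm38211 in Col5a2, Gm44716 in Col4a1 had 55.0, 26.5 and 25.04 FPKM in Sham and 77.6, 74.8 and 46.1 in I/R hearts (0.94 ± 0.34), overlapping through Sham replicate 1. Its unadjusted p was above 0.05 without Sham replicate 2 or 3 or I/R replicate 1 or 2. Gm47625 in Ptprb, an endothelial phosphatase gene, had 10.2, 15.8 and 10.5 FPKM in Sham and 8.31, 5.79 and 5.69 in I/R hearts (−0.78 ± 0.23), without overlap. Gm43921 in Col1a2 differed by −0.08 ± 0.16. Among the 23 coding genes of this list that were tested, 5 were higher and 0 lower (3.43% and 1.67% among all coding genes tested).

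Transcription factor and RNA processing genes contained 11, of which 10 were tested and none was at an unadjusted p under 0.05. Gm10855 in the splicing factor gene Celf2 differed by 0.03 ± 0.09 and Gm20705 in Foxp1 by 0.20 ± 0.12. Gm47132 and Gm47138 in Foxn3 differed by −0.03 ± 0.26 and −0.28 ± 0.26. The energy metabolism list had 1, Gm26513 in the phosphofructokinase gene Pfkm (−0.20 ± 0.22). The early response, inflammation and stress list had none. Of its 39 tested coding genes, 25 were higher and 1 lower at that p (3.43% and 1.67% among all coding genes tested). That list was chosen with earlier results of these data known, so its count of coding genes is no independent result.

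The genes listed both as lncRNA and as coding are given apart, since both entries draw on 1 gene. Of 52 tested, 10 (19.2%) were higher and 3 lower at an unadjusted p under 0.05, against 31 higher (3.58%) and 53 lower of 865 that overlapped a different gene. No test of this difference is given. Among all lncRNAs tested, 4.81% were higher and 6.02% lower at that p. In all 10 higher genes the I/R hearts were above the Sham hearts, but these genes were picked by p. Among all genes and lncRNAs tested, 7.1% had every I/R heart above every Sham heart. Leaving out 1 heart at a time gave 9 to 12 higher and 1 to 3 lower, and the other alternatives 8 to 13 higher and 0 to 3 lower.

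Beside Gm11110, Gm10382, Gm10645 and B430218F22Rik, the 10 include C730034F03Rik, whose promoter is shown above. It had 66.3, 70.1 and 66.7 FPKM in Sham and 84.4, 79.7 and 84.7 in I/R hearts (0.29 ± 0.09). Gm26558 had 62.2, 55.3 and 54.5 FPKM in Sham and 72.9, 76.1 and 73.9 in I/R hearts (0.37 ± 0.10), and Gm9913 had 51.0, 46.4 and 31.8 FPKM in Sham and 82.3, 65.6 and 55.7 in I/R hearts (0.65 ± 0.22). The others were Gm17324, Gm10322 and Gm9887, at 0.27, 0.51 and 0.38. Their unadjusted p stayed under 0.05 in 2, 6 and 4 of the 6 fits with 1 heart left out, and that of Gm9913 in 4.

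The 3 lower were 4930518I15Rik, 3110070M22Rik and Gm10647, at −0.49, −0.41 and −0.50. Their unadjusted p stayed under 0.05 in only 1, 1 and 2 of the 6 fits with 1 heart left out. The coding entry was tested for 7 of the 10 higher genes and for 0 of them was at an unadjusted p under 0.05. Over all 28 genes with a tested coding entry, 2 coding entries were at that p, 4930518I15Rik at −0.63 ± 0.23, lower in both entries, and Gm10097 at 1.29 ± 0.50. Per kilobase, the lncRNA entry had more reads than the coding entry in 36 of 42 with at least 60 reads, with a median ratio of 12.4.

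**Figure D5:**
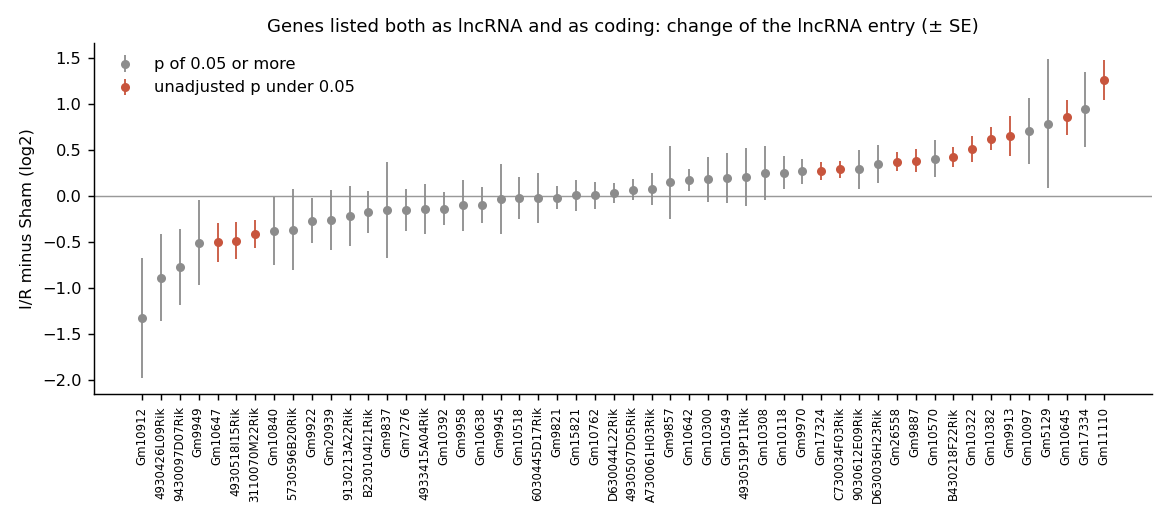
Log2 difference (I/R minus Sham, with SE bars) of the lncRNA entry of the 52 tested genes listed both as lncRNA and as coding, in rising order. Red points are at an unadjusted p under 0.05: 10 lie above 0, up to Gm11110 at 1.26, and 3 below.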

How the data were processed

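Per the labels' protocols, libraries from 3 Sham and 3 I/R hearts were prepared from poly(A) RNA with NEBNext Ultra II reagents. Tools named in the submitters' processing notes are HTSeq 0.10.0, HISAT2 2.1.0, fastp 0.23.0 and bcl2fastq 2.19.1.403. The sources used here do not say how reads over overlapping genes were assigned, nor with which annotation and strand setting. The authors deposited FPKM per transcript, and FPKM of transcripts of a coding gene were summed. Whole reads behind the FPKM were recovered (within 0.001) for 9413 of 9413 lncRNA rows and 11744 of 11745 coding rows, and a lncRNA with a recovered length equal to its span was taken as 1 exon. The submitters' processing notes name GRCm39, GRCm38 and mm10 with no role for each. Coordinates are those of the table, and for 600 of 619 coding genes at least 50% of the span lay in the GRCm38 RefSeq span, so GRCm38 is given. Promoters come from RefSeq: 42 of the 1017 lncRNAs and 474 of 602 coding genes had an entry. Sdcbp, Col5a2 and Auts2 had none.

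Features with a mean of at least 0.5 FPKM were fitted as log2(FPKM + 1) with limma 3.58.1 in R 4.3.3 (two-sided, with a variance trend, and p-values adjusted by Benjamini-Hochberg across the 12114). Log2 differences are on that scale, which understates those of low values. For each pair, the lncRNA minus the coding gene was fitted in the same way. The fit and the recovery were tested on simulated data. Other steps used Python 3.11.15, numpy 2.4.6, pandas 2.3.3 and matplotlib 3.10.9. The lncRNAs, gene lists and tests were chosen with earlier results of these data known. The rule for naming took the 12 most abundant, the 10 higher and 10 lower with the smallest unadjusted p (at least 60 reads), up to 6 per gene list, 5 pairs in each direction and 3 per position class. Some lncRNAs that the rule named are not reported here. Those outside it (in Auts2 and Ank2, the pairs that differed together, and genes listed under both classes) were named after their values were seen. Alternatives were other pseudocounts, filters, scalings and variance models, voom on recovered reads, a replicate block and each heart left out. The other ways of taking the length were added after the data were seen.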

Additional observations from a re-analysis of the deposited data

How the results depend on the processing

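With the median of each class centred, the median log2 difference of the lncRNAs was 0.0139 in place of −0.0545, and without 1 heart it was −0.0644 to −0.024. The count at an unadjusted p under 0.05 was 78 to 127 of the main 97 without 1 heart and 78 to 102 under the other alternatives without the replicate block. No lncRNA passed the adjusted threshold under any alternative run. Pairs at an unadjusted p under 0.05 numbered 61 with no filter and 12 at a mean of at least 5 FPKM, in place of 32, and 23 to 55 without 1 heart (55 without I/R replicate 1). The cause was not tested, but the filter changes the number of pairs tested.

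Several of the named lncRNAs near 0 changed sign. With median centring this gave 0.0226 for Gm28967, 0.0375 for Gm20412, 0.0675 for Gm43809, 0.0178 for Gm15344, 0.0341 for Gm47132 and 0.039 for Gm29103, and with quantile normalization 0.0344 for Gm20412. Leaving out 1 heart gave −0.167 to 0.023 for Gm28967, −0.168 to 0.139 for Gm20412, −0.0209 to 0.0252 for Gm43809, −0.163 to 0.0617 for Gm15344, −0.0553 to 0.102 for Gm43695, −0.0474 to 0.229 for Gm17134, −0.0808 to 0.0828 for Gm43011, −0.00949 to 0.0838 for Gm10855, −0.262 to 0.137 for Gm47132, −0.0392 to 0.0862 for Gm37678, −0.0217 to 0.134 for Gm28052 and −0.0882 to 0.0154 for Gm29103. Of 54 lncRNAs that the naming rule chose, the other 42 kept their sign under every alternative run.

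Replicate numbers do not pair the hearts by the labels, and same-numbered hearts correlated in their deviations by 0.153, 0.0283 and 0.0287. With a replicate block, 126 lncRNAs (54 higher, 72 lower) and 40 pairs were at an unadjusted p under 0.05, none past the adjusted threshold. Reads limit what can be said of the 239 lncRNAs with under 60 reads in all 6 hearts and of coding genes such as Auts2.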
